A study of Mus musculus with 6 samples.

Results

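Schwann cell and myelin genes were followed in mouse gastrocnemius, the large fast muscle of the calf, as a readout of the nerve that runs through the muscle. The 8 genes, Mbp, Pmp22, Mag, Prx, Egr2, Sox10, S100b and Cnp, were taken by symbol from a table of 24054 genes, and all 8 were measured well enough to be tested. The 6 RNA-seq libraries came from male C57BL/6 mice. In the 3 MI4KO libraries, labelled as IRF4 knock out, both floxed copies of Irf4 had been removed from muscle by Myl1-Cre. In the 3 MI4OE libraries, labelled as IRF4 overexpression, the same Myl1-Cre switched on an IRF4 transgene at the Rosa26 locus. Both groups therefore carried Myl1-Cre, a driver active in skeletal muscle fibres, and neither manipulation was aimed at Schwann cells. The labels give a high fat diet for every library whereas the study describes mice on chow, so the diet is in doubt, and the age of these mice was not given in the sources used here. No flox or wild-type gastrocnemius was analysed here, so what is compared throughout is muscle lacking IRF4 with muscle that has too much of it.

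Schwann cells are the glia of peripheral nerve. Those that myelinate wrap a single axon in a compacted membrane sheath, and others ensheathe several thin axons without making myelin. Sox10 keeps cells in the lineage and, together with Egr2, switches on the genes of the sheath, and in a whole muscle the transcripts of these genes are looked for in the intramuscular nerve branches rather than in the fibres. In bulk tissue fewer cells of a type and less RNA per cell cannot be told apart, and a level here is that of the whole piece of muscle.

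The libraries held 18828605 to 29239585 expected counts, so that 3 counts, taken as the floor of detection, were worth between 0.101 and 0.148 CPM (counts scaled to a common library size with TMM factors). Irf4 measured 0.246, 0 and 0.0672 CPM across MI4KO replicates 1, 2 and 3 and between 140.9 and 369 CPM in MI4OE, as the labels require. MI4OE replicate 1 stood apart, with 25.5% of its counts in the 10 most abundant genes against 32.8% to 36.8% elsewhere and a summed level of 6 slow fibre genes of 5840 CPM against 0.909 to 490 CPM elsewhere. The labels name no batch, and nothing in them says whether the mice were littermates.

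The 8 genes rose and fell together from library to library, but did not separate the genotypes. Their summed level was 33.5, 88.1 and 32.0 CPM in MI4KO replicates 1, 2 and 3 and 75.3, 148 and 59.5 CPM in MI4OE replicates 1, 2 and 3, a 4.63-fold range. MI4OE replicate 2 was highest, MI4KO replicate 2 exceeded the other two MI4OE libraries, and MI4KO replicates 1 and 3 were lowest, so the groups overlapped. In edgeR's quasi-likelihood test none of the 8 had an adjusted p under 0.05, where 0.0237% of the 12660 tested genes did (3 genes). None reached the study's criterion of 1.5-fold with an unadjusted p under 0.05, which 6.64% of tested genes met, and 0 of 8 had an unadjusted p under 0.05, against 7.58%. The fitted log2 fold change, MI4OE over MI4KO, was above 0 for 8 of 8, against 50% of tested genes, and 0 of 8 had groups that did not overlap with MI4OE higher, against 7.38%. The 8 values had a median of 0.90 against -0.00 over all tested genes.

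**Figure D1:**
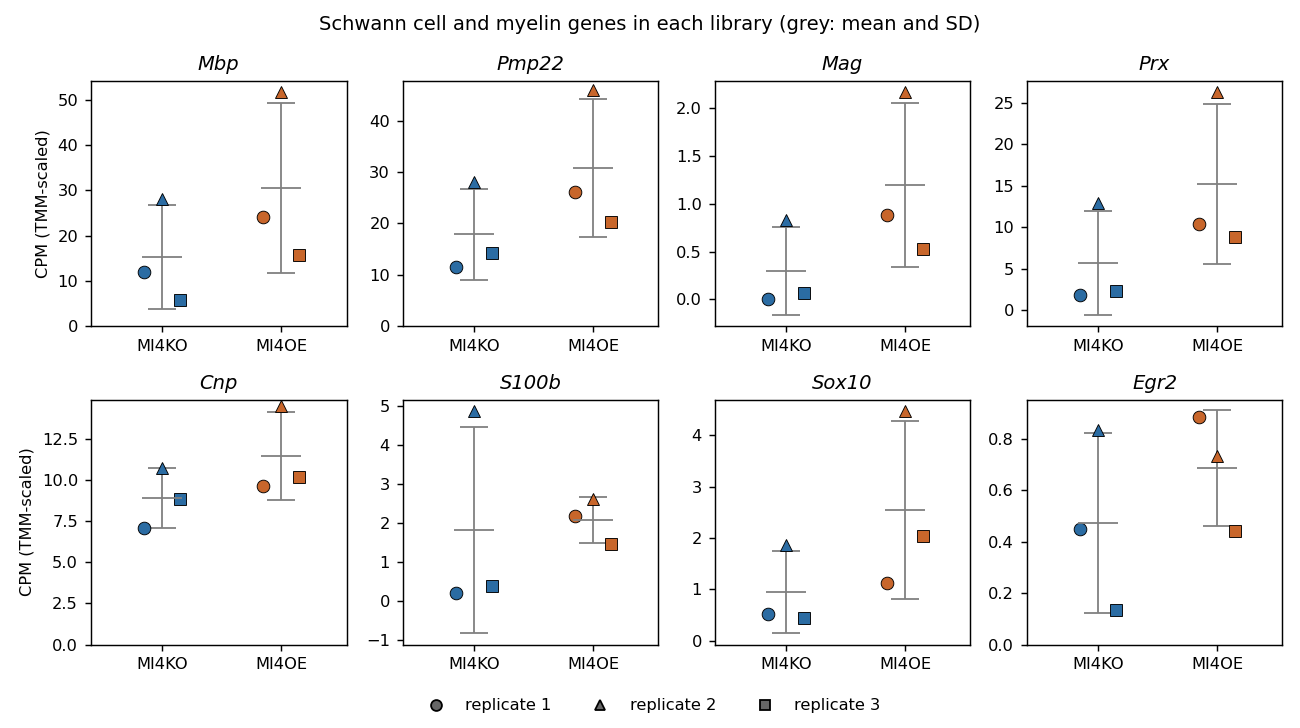
CPM of each gene in each library, on linear axes with a separate scale per gene. Points are libraries, shaped by replicate number within a group, and grey bars are the mean and SD of 3 libraries. The 2 groups overlap in all 8 panels, and replicate 2 is highest in its group for every gene except Egr2 in MI4OE.

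Pmp22 and Mbp were the most abundant members. Per transcript length, mean TPM over the 6 libraries was 23.6 for Pmp22, 19.1 for Mbp, 7.35 for Cnp, 3.80 for Prx, 2.13 for S100b, 1.12 for Sox10, 0.542 for Mag and 0.328 for Egr2. Mbp encodes myelin basic protein, which holds the cytoplasmic faces of the sheath together. Its MI4KO libraries measured 11.95, 28.05 and 5.68 CPM, in the order of replicates 1, 2 and 3 that is kept throughout, and its MI4OE libraries 24.2, 51.8 and 15.7 CPM. MI4KO replicate 2 lay above 2 of the 3 MI4OE libraries, and the fitted log2 fold change was 1.01 ± 0.62 (SE), with an adjusted p of 0.780.

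Pmp22, a tetraspan protein of compact peripheral myelin whose dosage is altered in hereditary neuropathies, measured 11.5, 28.0 and 14.1 CPM without IRF4 and 26.1, 45.9 and 20.3 CPM with its excess. Its order of libraries differed from that of Mbp only at the bottom, where MI4KO replicate 1 was lowest. Its log2 fold change came to 0.79 ± 0.41 (SE), adjusted p = 0.726. Pmp22 is also used by other cells, and their share of this level was not tested.

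Prx encodes periaxin, a scaffold of the Schwann cell membrane that is best known from myelinating Schwann cells. The MI4KO libraries held 1.80, 12.9 and 2.35 CPM of it and the MI4OE libraries 10.3, 26.3 and 8.88 CPM. MI4KO replicate 2 lay above MI4OE replicates 1 and 3, while the other 2 MI4KO libraries lay below every MI4OE library. Among the members measured above 0 everywhere, its range across libraries, 14.6-fold, was exceeded only by the 23.8-fold range of S100b. The log2 fold change was 1.42 ± 0.77 (SE) with an adjusted p of 0.731.

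Mag encodes a sialic acid binding adhesion protein on the inner membrane facing the axon. It had 0, 21 and 2 counts in MI4KO and 18, 62 and 12 counts in MI4OE, or 0, 0.832 and 0.0672 CPM against 0.886, 2.17 and 0.530 CPM. MI4KO replicate 1 was at 0, which allows up to 0.123 CPM, and MI4KO replicate 2 lay within the range of MI4OE. The fitted log2 fold change of 2.01 ± 1.10 (SE), with an adjusted p of 0.732, rests on few counts and on the offset added to them.

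Cnp encodes a phosphodiesterase of non-compacted myelin. It varied least, 2.05-fold between its highest and lowest library, at 7.08, 10.7 and 8.87 CPM in MI4KO and 9.64, 14.5 and 10.2 CPM in MI4OE. MI4KO replicate 2 again lay above MI4OE replicates 1 and 3. The log2 fold change was 0.37 ± 0.23 (SE) with an adjusted p of 0.789. Cnp is also transcribed outside glia, and how much of its level came from other cells was not tested.

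S100b, a calcium-binding protein used to stain Schwann cells, was the only member highest in a MI4KO library. The MI4KO libraries measured 0.205, 4.87 and 0.369 CPM, or 5, 123 and 11 counts, and MI4OE 2.17, 2.62 and 1.46 CPM. The highest library was here MI4KO replicate 2, with 123 counts against 33 to 75 in MI4OE, and the lowest 2 were again the other MI4KO libraries. The SE of 0.9996 exceeded the log2 fold change of 0.21 (adjusted p = 0.978), and the sign turned to -0.33 without MI4KO replicate 1.

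The 2 transcription factors were low. Sox10 was at 0.532, 1.86 and 0.437 CPM in MI4KO and 1.13, 4.47 and 2.03 CPM in MI4OE. MI4OE replicate 2 was again highest, MI4KO replicate 2 lay above MI4OE replicate 1, and its log2 fold change was 1.45 ± 0.69 (SE), with the lowest unadjusted p of the 8 at 0.0716 by the quasi-likelihood test and an adjusted p of 0.700. Egr2 had 11, 21 and 4 counts in MI4KO and 18, 21 and 10 counts in MI4OE, which is 0.450, 0.832 and 0.134 CPM against 0.886, 0.734 and 0.442 CPM. Its highest library was MI4OE replicate 1, and the log2 fold change was 0.55 ± 0.64 (SE) with an adjusted p of 0.882. Egr2 is also an immediate early gene in other cells. The summed level of 10 other immediate early genes was highest in MI4KO replicate 1, at 419 CPM, and between 145 and 268 CPM in the rest. Nr4a1 made up 303.6 CPM of that highest sum. Nr4a1, Fosb, Junb, Arc and Btg2 were highest in MI4KO replicate 1 and Fos in MI4KO replicate 3. Egr1, Egr3, Ier2 and Atf3 were highest in MI4OE replicate 1, as Egr2 was. The part of an immediate early response in Egr2 was not tested.

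**Figure D2:**
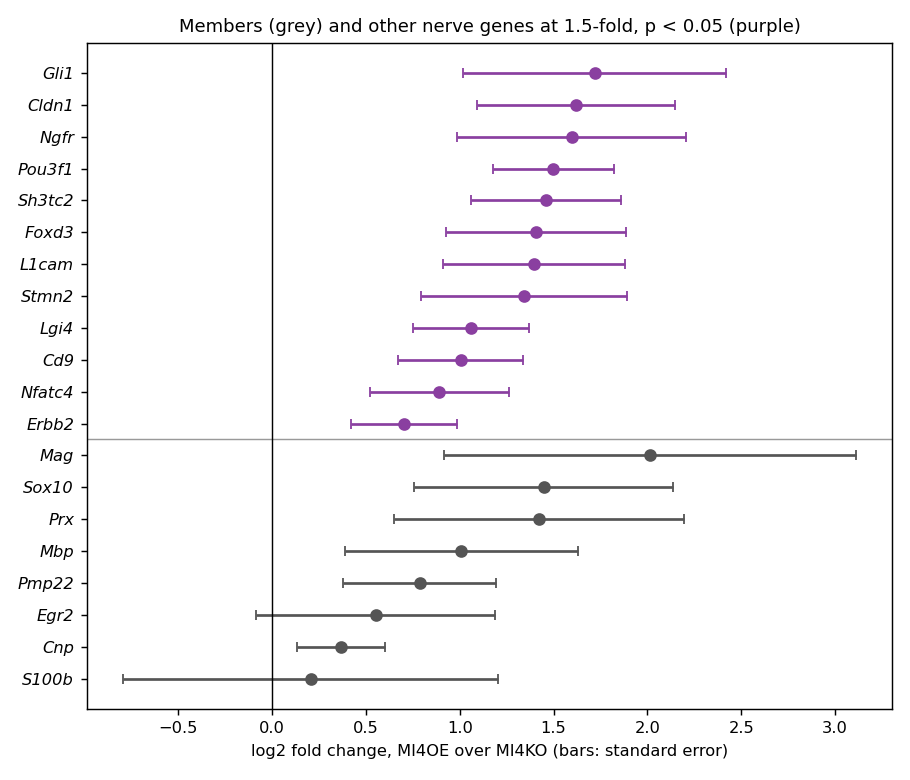
Log2 fold change, MI4OE over MI4KO, with its standard error, from the fit to all genes. The 8 members are in grey, from 0.21 for S100b to 2.01 for Mag, and 12 of the 13 other nerve genes that met 1.5-fold and an unadjusted p of 0.05 are in purple. The purple genes were selected on the plotted value, so their position right of 0 is part of the selection.

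How the groups compared depended on single libraries. Without MI4KO replicate 2, 6 of the 8 genes met the 1.5-fold criterion (Mbp, Pmp22, Mag, Prx, Sox10 and S100b), where 6.33% of 13039 tested genes did, and the median log2 fold change of the 8 was 2.09. Without MI4OE replicate 2 none met it, against 10.2% of 12845 tested genes, and the median was 0.44. In both fits the quasi-likelihood test gave no member an adjusted p under 0.05. Nothing in the labels sets either library apart.

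How closely the genes scaled together was measured by Pearson's r of log2(CPM + 0.5) over the 6 libraries, for all 28 pairs. The median r was 0.887, the range 0.458 to 0.994, and 28 of 28 were above 0. In all, 67.9% of the pairs had r above 0.8, against 7.40% of all pairs of tested genes, whose median r was 0.000. The points of a pair share their library, and the 8 genes were listed as one cell type's genes, so the median is given as a description. The exact permutation test over 720 orderings (two-sided) gave an adjusted p under 0.05 for Pearson's r in 16 of the 28 pairs. For Spearman's rho, with a median of 0.857, it did so in 0 pairs, with a smallest adjusted p of 0.0519 and 14 pairs at an unadjusted p under 0.05.

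The tightest pair was Pmp22 and Mag, with r = 0.994 (exact permutation p = 0.00278, adjusted over 28 pairs 0.0194) and rho = 0.943 (p = 0.0167, adjusted 0.0519). Without the 2 libraries farthest from the median its r was 0.983. Prx and S100b had r = 0.894 (exact permutation p = 0.0208, adjusted 0.0417) and rho = 0.943 (p = 0.0167, adjusted 0.0519), but r was 0.345 once MI4KO replicates 1 and 3 were left out, so that relation rests on those libraries. Egr2 and Cnp were the loosest pair, with r = 0.458 (exact permutation p = 0.346, adjusted 0.346) and rho = 0.371 (p = 0.497, adjusted 0.516). Over all pairs the median r without the 2 farthest libraries was 0.864, with 28 of 28 above 0.

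Egr2 had the lowest median r with the other members, 0.732, and S100b the next, 0.802. The other 6 genes had medians between 0.880 for Mbp and 0.925 for Prx. The genes also moved together within the groups. After subtraction of each group's mean the median r was 0.853 and 64.3% of pairs stayed above 0.8, against 10.2% of all gene pairs. Between 14.0% (S100b) and 46.0% (Mag) of a member's log2 variance lay between the groups, with a median of 35.5% against 15.1% over all tested genes. In 7 of the 8 genes replicate 2 was the highest library of both groups, as it was for 22.3% of all tested genes, a pattern that was chosen after the values were seen. The numbers only name libraries, in accession order, and link no pair of mice.

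**Figure D3:**
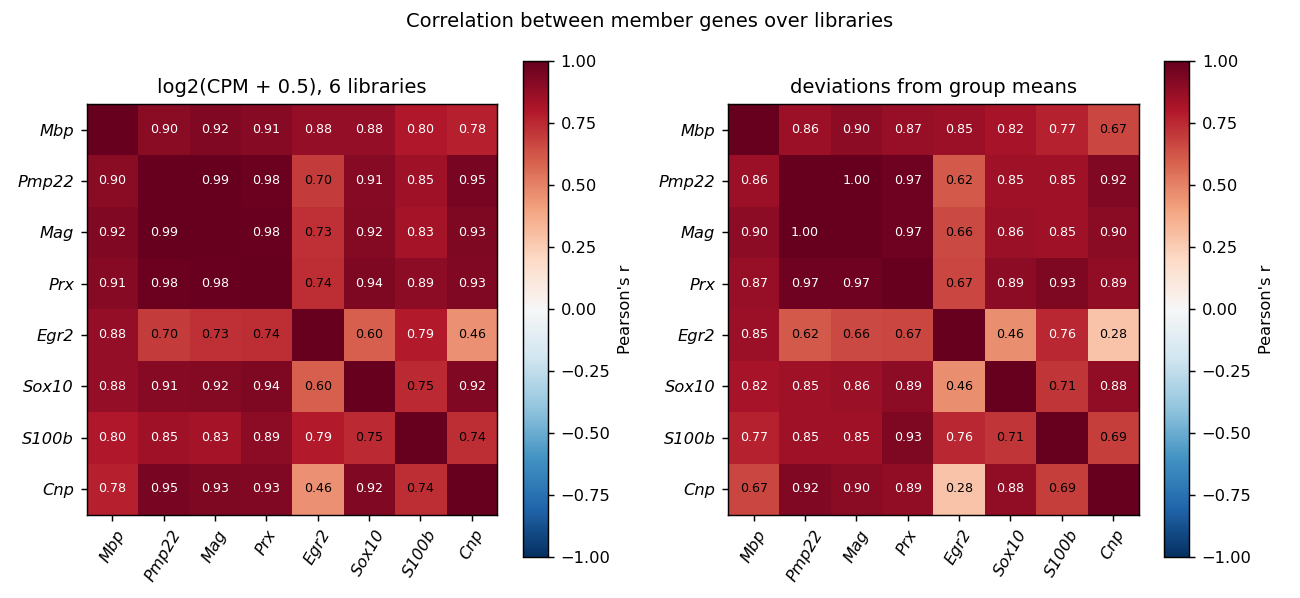
Pearson's r between the 8 genes over 6 libraries, for log2(CPM + 0.5) on the left and for deviations from the group means on the right, with colour running from -1 to 1. The row of Egr2 is the palest in both panels, and its r with Cnp, 0.458 on the left and 0.284 on the right, is the lowest.

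Genes that move in proportion keep a fixed ratio. Drp2, which binds periaxin at the Schwann cell membrane and is no member of the 8, stood to Prx at 0.298 to 0.727 in CPM, a 2.44-fold range while Prx itself ranged 14.6-fold. Mbp over Prx was 6.64 in MI4KO replicate 1 and 1.77 to 2.41 in the other libraries. Sox10 over Prx ran from 0.110 to 0.296. Cnp over Prx fell between 0.553 and 3.93 and Pmp22 over Prx between 1.75 and 6.36, with the highest ratios in the 2 libraries that were lowest in Prx, MI4KO replicates 1 and 3. These 2 genes thus varied less than Prx did, and a fixed proportion to it was not kept.

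The departure of Mbp in MI4KO replicate 1 was seen again when its transcripts were separated by start. The Mbp locus makes the classic myelin proteins from a downstream start and the longer Golli products, which are also made outside myelinating glia, from an upstream start. The transcript set held 2 transcripts with the upstream start and 6 with a start 79.3 kb downstream (positions compared in GENCODE M21). The downstream group was at 5.35, 23.9 and 3.45 TPM in MI4KO and 17.2, 44.5 and 12.5 TPM in MI4OE, a 12.9-fold range. The upstream group was at 1.91, 1.83 and 0.55 TPM in MI4KO and 0.66, 1.76 and 0.76 TPM in MI4OE, a 3.47-fold range, and did not follow the library order of the sheath genes.

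Upstream transcripts took 35.7%, 10.6% and 25.9% of the Mbp counts in MI4KO and 8.79%, 5.55% and 8.68% in MI4OE. With the downstream transcripts alone, the ratio to Prx in MI4KO replicate 1 was 4.27, against 1.61 to 2.13 in the other libraries, so the departure was smaller but remained. RSEM divides reads between transcripts that share exons, single transcripts dropped to 0 in some libraries and not in others, and this split was made after the values were seen. It is given without a test. Cnp and Prx each had 2 transcripts in the set. The lesser Cnp transcript had 0, 14.4 and 0 expected counts in MI4KO and 18.3, 106.7 and 29.4 in MI4OE, or 0 to 0.42 TPM against 0.54 to 2.64 TPM. The main one ran from 4.17 to 8.39 TPM, and both were highest in MI4OE replicate 2. The lesser Prx transcript had 17.4, 0 and 0 counts in MI4KO and 0, 57.0 and 26.0 in MI4OE. The same limits hold for these splits. Pmp22, Mag, Egr2, Sox10 and S100b each had 1 transcript.

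**Figure D4:**
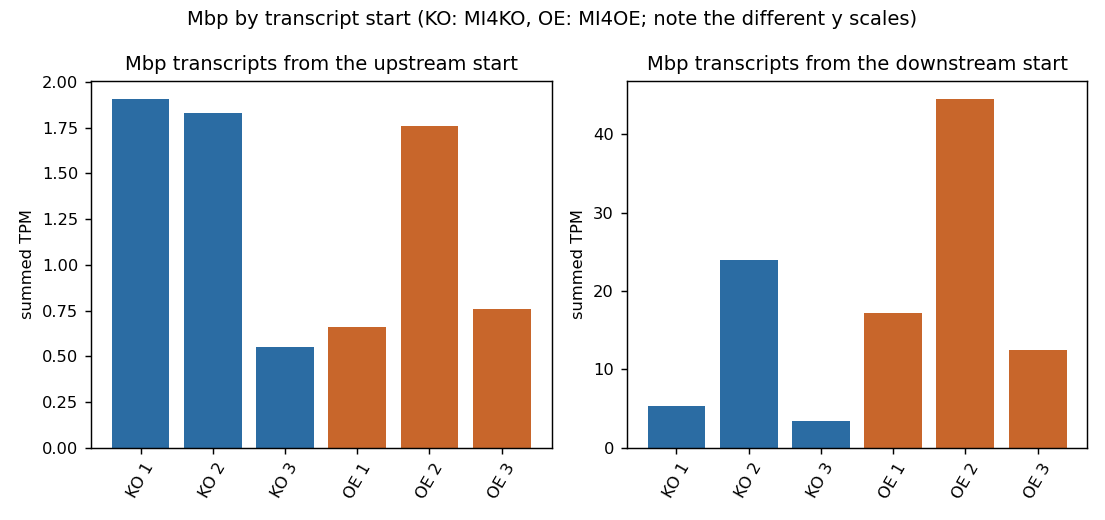
Summed TPM of Mbp transcripts by start site in each library (KO, MI4KO; OE, MI4OE), on linear axes of different scale. The downstream group ranges from 3.45 to 44.5 TPM and is highest in both replicate 2 libraries, whereas the upstream group stays between 0.55 and 1.91 TPM and is highest in MI4KO replicate 1.

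Since Sox10 and Egr2 act on the promoters of sheath genes, the start sites of the members were searched for the letters of their usual sites, GTGGGNG for EGR proteins and ACAAAG for SOX proteins, on both strands, with no overlap between matches of the 2. The windows, from RefSeq on GRCm38.p6, run from 250 bases before to 50 bases after each start. There were 15 windows for 6 of the 8 genes (Pmp22, Mag, Prx, Egr2, S100b and Cnp), and none was used for Mbp or Sox10. GTGGGNG was found in 6 of the 15 windows, at 4 genes, against 31.6% of 32851 promoters, and ACAAAG in 3 windows, at 2 genes, against 18.7%. Of these, 2 windows of Mag overlap and hold the same matches, so each of their matches is counted in both. These short letters are common, and a match is a description and not a site. The windows of Prx (chr7:27499074-27499373, plus strand), Mag (chr7:30914814-30915113, minus strand) and Cnp (chr11:100574689-100574988, plus strand) are shown because these genes have the highest median r with the other members (0.925, 0.925 and 0.924) and the window holds a match. Each reads 5′ to 3′ along the gene, with matches in capitals.
Prx: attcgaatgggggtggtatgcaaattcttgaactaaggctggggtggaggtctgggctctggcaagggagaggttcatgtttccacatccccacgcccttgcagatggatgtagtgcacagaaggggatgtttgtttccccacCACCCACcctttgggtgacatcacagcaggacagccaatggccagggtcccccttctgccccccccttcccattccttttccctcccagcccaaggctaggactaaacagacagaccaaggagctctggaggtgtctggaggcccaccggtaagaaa
Mag: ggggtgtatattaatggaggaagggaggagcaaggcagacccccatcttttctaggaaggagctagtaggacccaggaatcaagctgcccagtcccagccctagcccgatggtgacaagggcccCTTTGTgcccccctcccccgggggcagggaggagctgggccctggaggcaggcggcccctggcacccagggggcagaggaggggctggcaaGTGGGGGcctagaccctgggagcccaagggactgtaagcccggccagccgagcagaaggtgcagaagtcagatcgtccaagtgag
Cnp: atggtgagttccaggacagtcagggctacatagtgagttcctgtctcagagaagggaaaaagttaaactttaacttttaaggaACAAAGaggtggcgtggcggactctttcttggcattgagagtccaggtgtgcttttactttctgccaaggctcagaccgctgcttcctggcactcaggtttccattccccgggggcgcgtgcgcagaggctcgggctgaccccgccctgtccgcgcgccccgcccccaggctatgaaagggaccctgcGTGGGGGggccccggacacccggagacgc

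In Prx the capitals are 1 GTGGGNG read from the other strand, beginning at position -107 from the start site. Mag and Cnp each hold 1 ACAAAG, at -126 on the other strand in Mag and at -167 on the gene's own strand in Cnp, and 1 GTGGGNG, at -35 in Mag and 21 bases into the transcribed part in Cnp. The windows of S100b and the 4 windows of Pmp22 held neither run of letters.

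Next, the rest of the nerve was examined with 6 lists of other nerve genes, 82 genes in all, of which 52 were measured well enough to be tested. The other 30 were too low, and the counts that follow do not cover them. In edgeR's quasi-likelihood test 0 of the 52 had an adjusted p under 0.05, and 13 an unadjusted p under 0.05. DESeq2 called 0 of them, where it called 111 of 12660 tested genes. The exact test of edgeR called 1, Pou3f1, with an adjusted p of 0.0253, where it called 108 of 12660. At 1.5-fold and an unadjusted p under 0.05, 13 of 52 (25.0%) were higher in MI4OE and 0 were lower, against 4.36% and 2.28% of all tested genes. The median log2 fold change of the 52 was 0.86. The number that met the criterion depended on single libraries. It was 25 of 56 tested nerve genes without MI4KO replicate 2, against 6.33% of all tested genes. It was 4 of 54 without MI4KO replicate 1, against 4.88%, and 4 of 56 without MI4OE replicate 1, against 4.56%.

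The list of compact myelin and myelin lipid genes behaved most like the members. All 11 tested genes had a log2 fold change above 0, with a median of 1.004, and 7 of them were among the 100 tested genes most like the members' mean profile. Drp2 was at 1.31, 3.84 and 0.840 CPM in MI4KO and 3.84, 8.22 and 2.83 CPM in MI4OE, with a log2 fold change of 1.32 ± 0.62 (SE) and an adjusted p of 0.688. Its groups overlapped too, with MI4KO replicate 2 level with MI4OE replicate 1 and above MI4OE replicate 3. The 2 genes that met the criterion were Cd9, a widely expressed tetraspanin (10.4, 10.7 and 10.4 against 33.6, 15.9 and 13.7 CPM, adjusted p = 0.546 by edgeR), and Sh3tc2, an endosomal protein of Schwann cells (0.328, 0.594 and 0.638 against 1.82, 1.08 and 1.46 CPM, adjusted p = 0.518 by edgeR). Neither was highest in MI4OE replicate 2, and both were highest in MI4OE replicate 1. Aspa, the third of the list by mean TPM, stood at 0.55 on the log2 scale (adjusted p = 0.843).

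Among 12 tested lineage regulators and receptors, 5 met the criterion, all higher in MI4OE, and none was among the 100 genes most like the members. Pou3f1 (Oct6), which precedes Egr2 in the onset of myelination, was at 0.573, 0.594 and 0.504 CPM in MI4KO and 1.82, 1.64 and 1.28 CPM in MI4OE. Its groups did not overlap, with a log2 fold change of 1.499 ± 0.32 (SE), an unadjusted p of 0.00198 by the quasi-likelihood test and an adjusted p of 0.433. Overlap was absent for 14 of the 52 genes (26.9%), against 12.9% of all tested genes. The others were Foxd3, a neural crest factor (log2 fold change 1.41), Lgi4, a secreted ligand of Schwann cells (1.06), Nfatc4 (0.89) and the neuregulin co-receptor Erbb2 (0.70). The most abundant of the list by TPM, Tead1, Nab1 and Zeb2, had log2 fold changes of -0.31, 0.01 and -0.08.

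Of 9 tested genes of non-myelinating and immature Schwann cells, 3 met the criterion. Ngfr, the p75 neurotrophin receptor, was at 0.0409, 0.357 and 0.302 CPM in MI4KO and 0.738, 0.769 and 0.662 CPM in MI4OE, with a log2 fold change of 1.60 ± 0.61 (SE) and an adjusted p of 0.606 by edgeR. L1cam, an adhesion protein of unmyelinated fibres, had a log2 fold change of 1.40. Ncam1 and Cadm4, among the list's highest by TPM, lay at 0.32 and 0.64 without meeting it.

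At the node and paranode, where Schwann cell loops meet the axon, 0 of 8 tested genes met the criterion. Nfasc, the neurofascin of node and paranode, and Gldn, a node organiser secreted by Schwann cells, were among the 100 genes most like the members. The 3 with the highest mean TPM, Ank3, Mcam and Mpdz, are used well beyond nerve and had log2 fold changes of -0.13, 0.10 and 0.26. In perineurium and endoneurium 2 of 11 met the criterion, Cldn1, a tight junction protein of the perineurium (log2 fold change 1.62), and Gli1, a target of hedgehog signalling (1.72). Dhh, the hedgehog ligand that Schwann cells send to the perineurium, was at 0.409, 1.19 and 0.571 CPM in MI4KO and 1.28, 1.82 and 0.707 CPM in MI4OE and was among the 100 most like the members. Slc2a1, Ntn4 and Itgb4, the highest of that list by TPM, had log2 fold changes of -0.00, 0.83 and 0.89.

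Axonal genes were low. Only 2 of 13 were tested and 2 were at 0 in every library. Uchl1 was at 4.87, 3.01 and 5.004 CPM in MI4KO and 22.5, 4.79 and 5.87 CPM in MI4OE. Stmn2, which met the criterion with a log2 fold change of 1.34, was at 1.43, 1.11 and 1.51 CPM against 6.59, 1.47 and 2.34 CPM. Both were highest in MI4OE replicate 1, whereas 6 of the 8 members were highest in MI4OE replicate 2. Tubb3, the third by TPM, stayed between 0.158 and 0.486 CPM and was not tested.

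The genes whose level over the 6 libraries was most like the mean centred log2 profile of the members were next ranked over 12652 genes. The profile itself, as a multiple of its mean, was 0.531, 1.45 and 0.515 in MI4KO and 1.197, 2.08 and 1.02 in MI4OE. The 10 most alike genes had r from 0.995 down to 0.984 over 6 libraries, and among them were Lpcat1, Plekha4, Acox3, Cdh13, Cdh1, Kif1a, Kcna1 and Tmod2. Of these 8, Kcna1 was on a nerve list. The others named were not, and with 6 points many genes can reach such a value. Of the 52 nerve genes, 23.1% were among the 100 most alike, against 0.79% of all ranked genes.

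The order of libraries was another one in genes of other cell types of the muscle. The oligodendrocyte genes that could point to central myelin were at 3 counts or fewer in every library, with 3 of the 8 at 0 throughout (Opalin, Olig2 and Nkx6-2). Endothelial, fibroblast and tendon genes were each highest, as sums, in MI4OE replicate 1, at 417, 590 and 130 CPM, where the members' profile was 1.197. Fibroblast genes met the criterion in 7 of 10 and endothelial genes in 5 of 10, all higher in MI4OE, with summed levels of 240 to 396 against 424 to 590 CPM and of 135.5 to 210 against 239 to 417 CPM. Tendon genes ran from 27.4 to 71.6 CPM in MI4KO and from 40.7 to 130 CPM in MI4OE, with 1 of 6 tested at the criterion. Adipocyte genes went the other way, lower in MI4OE for 9 of 10 at the criterion, and were highest in MI4KO replicate 3 at 1023 CPM. Macrophage genes lay between 27.9 and 48.5 CPM in MI4KO and between 22.7 and 49.5 CPM in MI4OE. Their part in the fold changes of the members was not tested.

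**Figure D5:**
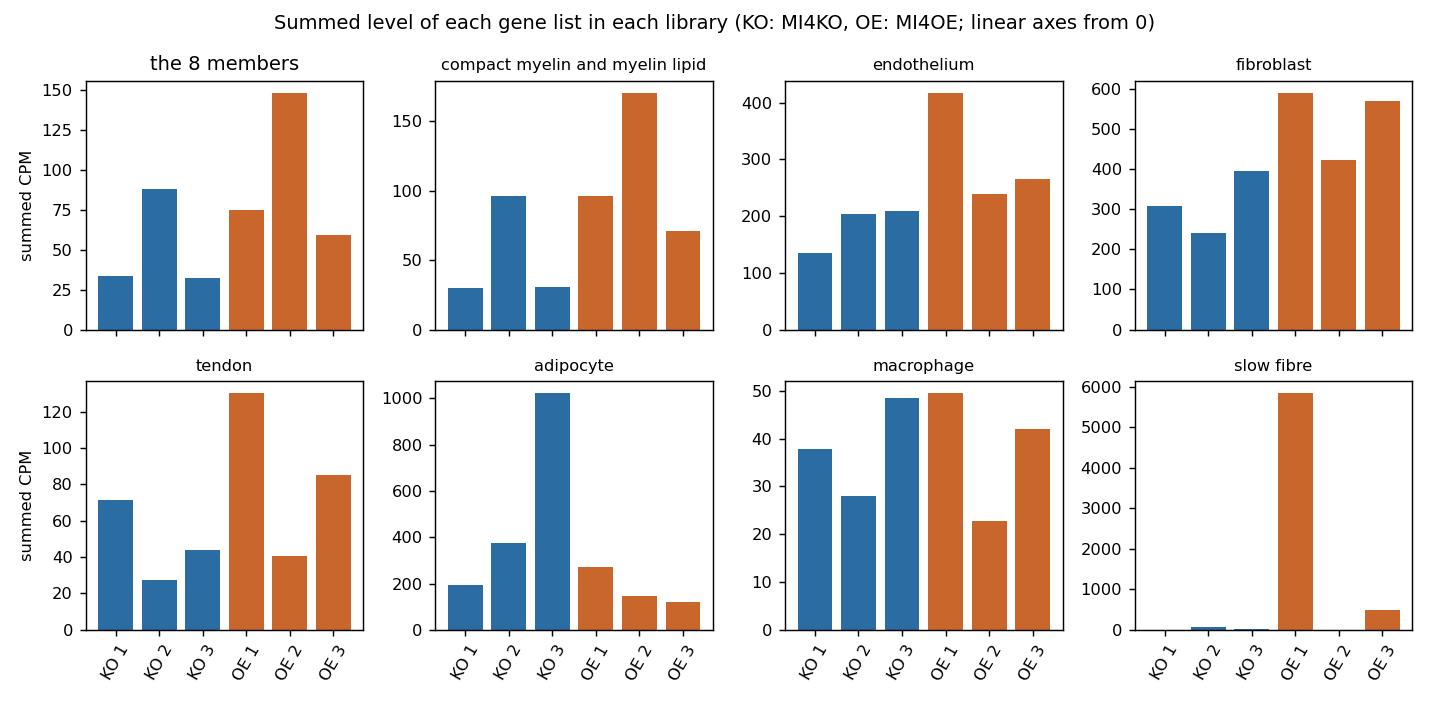
Summed CPM of the 8 members, of compact myelin genes and of 6 lists of other cell or fibre types in each library (KO, MI4KO; OE, MI4OE), on linear axes from 0 with a scale per panel. Members and compact myelin genes are both highest in MI4OE replicate 2, at 148 and 170 CPM, and lowest in MI4KO replicates 1 and 3. Endothelium, fibroblast, tendon and slow fibre are highest in MI4OE replicate 1 and adipocyte in MI4KO replicate 3. Macrophage is nearly level between MI4OE replicate 1, at 49.5 CPM, and MI4KO replicate 3, at 48.5 CPM.

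The muscle side of the synapse was examined last. The summed level of 10 genes that respond to denervation was 80.4, 68.5 and 58.4 CPM in MI4KO and 75.3, 85.8 and 75.5 CPM in MI4OE, with 2 of 7 tested genes at the criterion, both higher in MI4OE. These were 2 subunits of the muscle acetylcholine receptor, named here after their values were seen. Chrna1 measured 13.9, 12.0 and 7.59 CPM in MI4KO against 17.4, 22.7 and 17.4 CPM in MI4OE (log2 fold change 0.78 ± 0.25 SE, adjusted p = 0.546 by edgeR). Chrnd measured 0.901, 0.594 and 0.974 CPM against 4.13, 3.39 and 3.31 CPM (log2 fold change 2.12 ± 0.30 SE, adjusted p = 0.216 by edgeR), and neither had groups that overlapped. The other tested genes of the list did not meet the criterion and did not share a direction. Their log2 fold changes were 0.32 for Myog, 0.32 for Ncam1, 0.01 for Runx1, -0.15 for Gadd45a and -0.57 for Musk. That list includes Ncam1, which is also on a nerve list. Genes of the skeletal muscle fibre itself had a median log2 fold change of -0.32, with 0 of 8 at the criterion. Of the melanocyte genes, which share regulators with the Schwann cell lineage, 2 of 6 were tested and 0 met the criterion.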

How the data were processed

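RNA from gastrocnemius was enriched for mRNA, made into stranded libraries and sequenced as single reads of 50 bp. As the labels and methods state, the authors used bcl2fastq 2.17, mapped reads with Bowtie2 2.1.0 to a UCSC transcript set and quantified them with RSEM 1.2.15. The genome build was not given in the sources used here. The authors deposited expected counts, in which RSEM splits ambiguous reads among transcripts so that values need not be whole, and TPM, which is adjusted for transcript length. The authors also deposited their own comparison of the groups, with fold changes, p-values, false discovery rates and scaled signals, which was not used.

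Groups came from the genotype label. Expected counts were rounded and modelled in edgeR 4.0.16 (R 4.3.3) with filterByExpr (minimum count 10, minimum total 15, leaving 12660 of 24054 genes), TMM factors and the quasi-likelihood test at default settings, with Benjamini-Hochberg adjustment over all genes tested. CPM used TMM-scaled library sizes. Correlations used log2(CPM + 0.5) with exact permutation of the 6 libraries. For 3 libraries against 3 the smallest p of an exact permutation test is 0.1. Nothing says that replicates are separate cohorts, so p-values measure the spread between these samples. Floors of 3 counts cover counting error only. The fit was checked on simulated counts.

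The members and lists were chosen with earlier results of these data known. Named genes were the 8 members, other nerve genes at an adjusted p of 0.05 or at 1.5-fold with an unadjusted p of 0.05, the 3 of each nerve list with the highest mean TPM, and the 10 genes most like the members. Some genes that the rule names are not reported here. Drp2, Nfasc, Gldn and Dhh were named after their values were seen. Adgrg6 and Adgre1 were matched through older symbols. Alternatives were RLE factors, total counts, TMM without the 100 most abundant genes, 2 other filters, DESeq2 1.42.0, edgeR's exact test, limma 3.58.1 on log2(TPM + 1) and log2(TPM + 0.1), and fits without each library.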

Additional observations from a re-analysis of the deposited data

How the results depend on the processing

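No member passed an adjusted p of 0.05 under any of the 15 alternatives, and the median log2 fold change of the 8 stayed above 0 in each. As single libraries were left out it ran from 0.44 to 2.09, the latter without MI4KO replicate 2, and from 0.62 to 1.29 in the others. The number of members at 1.5-fold with an unadjusted p under 0.05 was 0 in the reported fit. It was 1 with no filter (Sox10, against 6.71% of all genes tested in that fit), 1 with the DESeq2 Wald test (Sox10, against 7.62%), 1 with limma on log2(TPM + 0.1) (Mag, against 5.81%), and from 0 to 6 as libraries were left out. The number of all genes with an adjusted p under 0.05 was 3 in the reported fit, 111 with DESeq2, 108 with edgeR's exact test and between 1 and 4 without single libraries. S100b changed sign, with values from -0.33 to 2.81 as libraries were left out, and below 0 when MI4KO replicate 1, MI4KO replicate 3 or MI4OE replicate 2 was missing. The causes were not tested. A mean CPM of at least 1 left 6 members, without Mag and Egr2.

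The median pairwise r of 0.887 was 0.857 as Spearman's rho and 0.853 on deviations from the group means, and 0.848 to 0.905 without single libraries. With limma on log2(TPM + 1), 2 of the 52 other nerve genes met the criterion, a share near the 3.7% of all tested genes. With edgeR's exact test 18 of the 52 did, against 7.87%, and at a mean CPM of at least 1, 9 of 39 did, against 6.3%. No paired analysis was possible because replicates were numbered by accession and the labels link no MI4KO library to an MI4OE library. Mag and Egr2, at no more than 62 and 21 counts, and the Mbp transcripts are limited by depth.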
